A study of Mus musculus with 10 samples.

Results

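A set of 7 genes that mark neural crest, autonomic neurons and their glia were followed in isolated metanephric mesenchyme of mouse kidneys at E11.5, when the ureteric bud has just entered the mesenchyme. The genes were taken by name, with earlier results of these data known: Sox10, Foxd3, Hand2, Isl1, Elavl4, Stmn2 and Tubb3. Every probe set annotated to exactly 1 of these symbols was taken, which gave 15 of the 45037 probe sets tested and 7 of 18193 genes. Wnt9b-/- embryos gave 5 Affymetrix mouse genome arrays, called mutant, and Wnt9b+/+ embryos gave 5, called wild type, all from intercrosses of Wnt9b+/- mice. The series' design text calls the controls Wnt9b+/- where the sample labels say Wnt9b+/+, and the sample labels were followed. The mesenchyme of both groups had been separated from the ureteric bud by enzyme treatment, and each array held a pool of 25 to 30 mesenchymes, so no value belongs to a single embryo.

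Neural crest cells leave the dorsal neural tube and settle along the trunk, where those beside the aorta become sympathetic neurons, chromaffin cells of the adrenal medulla and glia. The embryonic kidney forms close to these cells, and autonomic axons later enter it along its vessels. Sox10 and Foxd3 are transcription factors of migrating crest, and Sox10 stays on in glia. Hand2 and Isl1 are transcription factors of developing sympathetic neurons, although Hand2 also acts in limb and heart mesenchyme and Isl1 in the mesenchyme around the nephric duct and ureter. Elavl4 encodes a neuronal RNA-binding protein, Stmn2 a microtubule-destabilising protein of growing axons, and Tubb3 the neuronal form of beta-tubulin. The ureteric bud secretes Wnt9b, and the comparison asks which transcripts of the mesenchyme differ without it.

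RefSeq sequences upstream of the start (GRCm38.p6) were held for 5 of the 7 genes, and 4 of them had a single start. The 3 transcription factors among those 4 are shown because E-boxes are the sites that factors of Hand2's family bind. They are written CANNTG, a pattern whose match on 1 strand is also a match on the other. The E-boxes are in capitals in the 250 bases before each start. They lie at chr4:99656049-99656298, plus strand for Foxd3, at chr8:57320733-57320982, plus strand for Hand2 and at chr13:116309689-116309938, minus strand for Isl1.
Foxd3: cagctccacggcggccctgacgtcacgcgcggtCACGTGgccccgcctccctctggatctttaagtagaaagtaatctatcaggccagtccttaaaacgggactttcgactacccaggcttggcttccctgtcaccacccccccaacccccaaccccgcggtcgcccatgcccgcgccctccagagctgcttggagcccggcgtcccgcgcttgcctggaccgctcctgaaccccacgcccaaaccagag
Hand2: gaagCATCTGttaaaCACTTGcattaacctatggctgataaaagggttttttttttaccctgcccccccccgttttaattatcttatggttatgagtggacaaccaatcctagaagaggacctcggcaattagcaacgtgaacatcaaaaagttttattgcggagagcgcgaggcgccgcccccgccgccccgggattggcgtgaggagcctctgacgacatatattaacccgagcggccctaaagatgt
Isl1: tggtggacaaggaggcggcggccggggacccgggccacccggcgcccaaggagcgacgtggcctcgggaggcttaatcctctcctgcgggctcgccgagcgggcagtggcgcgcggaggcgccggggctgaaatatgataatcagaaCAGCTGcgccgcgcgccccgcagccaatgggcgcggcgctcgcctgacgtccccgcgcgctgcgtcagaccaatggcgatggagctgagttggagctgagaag
Foxd3 held 1 E-box (CACGTG), Hand2 held 2 (CATCTG and CACTTG) and Isl1 held 1 (CAGCTG). Tubb3 held none in its window. Of all 32851 starts in the RefSeq table, 66.2% had at least 1 E-box in the same window and 31.8% at least 2, so these matches describe the letters and nothing about binding.

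Signals are probe-set intensities as the authors deposited them, on a linear scale, and differences are mutant minus wild type on log2(signal + 1). As deposited, all 10 arrays had the same mean signal after trimming 2% at each end. A control probe set for 18S ribosomal RNA was over 1000 in mutant replicates 4 and 5 and wild-type replicates 2 and 5 (the high-18S set) and between 92.4 and 322 in the other 6 arrays (the low-18S set). As a guide to the level of transcripts this tissue should lack, the 44 olfactory receptor probe sets had a median log2 signal of 4.66 and a 95th percentile of 6.14. Probe sets differ in brightness for the same amount of RNA, so this range is a guide only. Wnt9b itself, at signals of 41.8 to 106 in mutant and 78.2 to 99.7 in wild-type arrays, did not separate the groups. Its source, the bud, had been separated from the mesenchyme, although most bud genes read below had signals above the olfactory receptor range. Where the Wnt9b probes lie relative to the deletion is not stated, so these signals check no label. Markers of the labelled tissue were bright in every array, with Six2, a nephron progenitor regulator, at signals of 580 to 1350 in mutant and 1061 to 1774 in wild-type arrays.

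On the brightest probe sets, Stmn2 was higher in every mutant array than in any wild-type array, and Foxd3 was higher at a dim level. On these probe sets Isl1 and Tubb3 had higher means with overlap, and Sox10 and Hand2 had nearly the same mean in both groups. Elavl4 differed by -0.16 with wide overlap on its brightest probe set and by -0.60 on its dimmest. None of the 15 probe sets was called by limma at an adjusted p under 0.05 over all probe sets. The background share called in either direction was 0.00444%, 2 of 45037 probe sets, and 0 with the replicate block for shared title wording. Both called probe sets fell in mutant, with differences of -2.49 for Cd109 (limma adjusted p = 0.0218) and -1.53 for Cdh4 (limma adjusted p = 0.0368). The smallest adjusted p among the 15 was 0.935. At an unadjusted p under 0.05, 2 of the 15 were higher in mutant and 1 was lower, where 2.56% of all probe sets were higher and 1.95% lower. Over the 7 brightest probe sets, 5 were higher and 2 lower, with a median difference of +0.25 against +0.02 over the brightest probe sets of all genes. Of all 18193 genes read in this way, 9991 were higher and 8202 lower. The pools hold many cell types, so fewer cells of a type and less RNA per cell cannot be told apart.

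**Figure D1:**
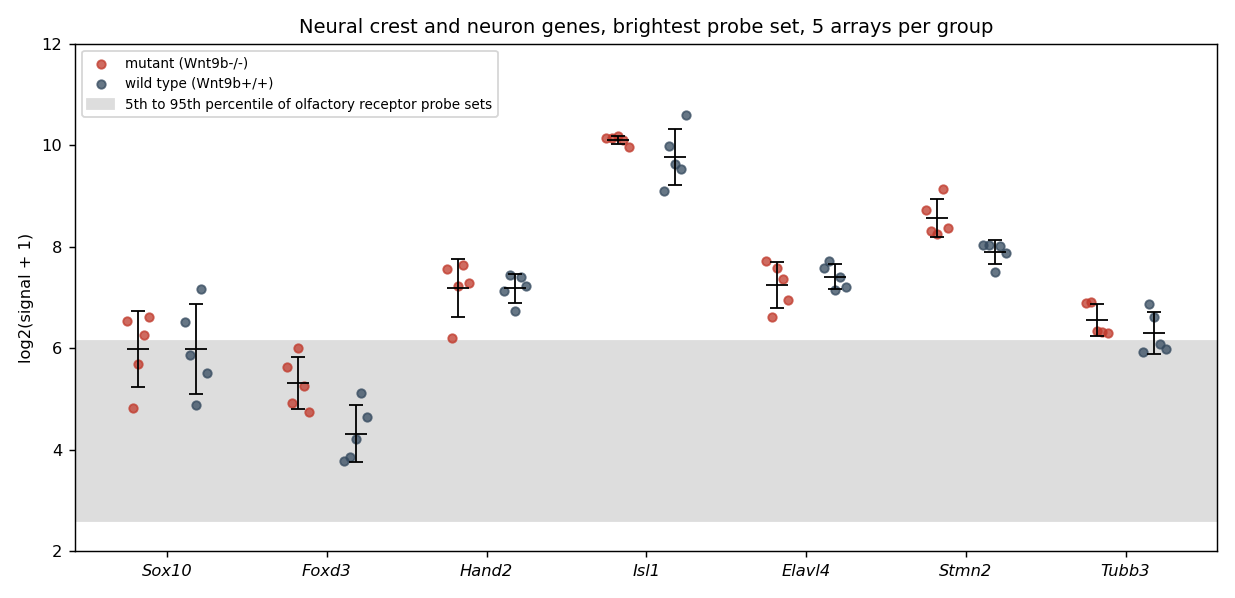
Log2(signal + 1) of the brightest probe set of each gene in the 5 mutant (left of each pair) and 5 wild-type arrays; points are arrays, bars the mean and SD, and the grey band the 5th to 95th percentile of 44 olfactory receptor probe sets. Stmn2 separates the groups, Foxd3 lies inside the grey band in both, and Sox10 lies across its upper edge.

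Stmn2 gave the clearest separation. Its brighter probe set (1423281_at) had signals of 421, 317, 306, 566 and 330 in mutant replicates 1 to 5, against 263, 260, 179, 259 and 234 in wild-type replicates 1 to 5. The lowest mutant array lay above the highest wild-type array, with mutant replicate 4 the highest and wild-type replicate 3 the lowest. Log2 signals averaged 8.56 ± 0.37 in mutant and 7.89 ± 0.23 in wild type (SD, n = 5 each), a difference of +0.67 (SE 0.20, 95% interval 0.22 to 1.12) or 1.59-fold. Groups that did not overlap with mutant higher made up 0.464% of all probe sets, and those with mutant lower 0.424%. The limma adjusted p was 0.985, and the two-sided exact permutation p of 0.00794 is the smallest that 5 against 5 arrays can give. The permutation p-values of differences between the groups treat the 10 arrays as exchangeable and take no account of shared title wording.

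The second Stmn2 probe set (1423280_at) had signals of 311, 144, 309, 402 and 254 in mutant replicates 1 to 5, against 223, 161, 166, 206 and 162 in wild-type replicates 1 to 5. Here 4 of 5 mutant arrays lay above every wild-type array, while mutant replicate 2 was the lowest of all 10. The difference was +0.57 (SE 0.26, limma adjusted p = 1.00). In the high-18S set Stmn2 differed by +0.81 on the brighter and +0.98 on the second probe set, and in the low-18S set by +0.58 and +0.29. In deviations from the group means over 10 arrays, the 2 probe sets had a Pearson r of 0.62 (exact within-group permutation p = 0.127, adjusted 0.348 over 11 pairs). The Spearman rho was 0.58 (p = 0.105, adjusted 0.276), so their agreement across arrays was not shown. Without the 2 arrays farthest from the median of the brighter probe set, r was 0.47.

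Elavl4 was lower in mutant on all 3 of its probe sets, opposite to Stmn2. The brightest (1428741_at) had signals of 211, 97.5, 192, 163 and 123 in mutant replicates 1 to 5, against 191, 208, 141, 168 and 146 in wild-type replicates 1 to 5. These groups overlapped widely, with a difference of -0.16 (SE 0.23) that came to -0.00055 without mutant replicate 2. The next (1450258_a_at) ran from 73.6 to 152 in mutant, with a median of 98.9, and from 120 to 171 in wild-type arrays, with a median of 146, and differed by -0.42 (SE 0.20).

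The dimmest Elavl4 probe set (1452894_at) had signals of 83.1, 120, 78.3, 98.2 and 84.4 in mutant replicates 1 to 5, against 154, 160, 134, 104 and 153 in wild-type replicates 1 to 5. Mutant replicate 2 lay above wild-type replicate 4, and apart from these arrays the groups were separate. The log2 means were 6.53 ± 0.25 in mutant and 7.13 ± 0.25 in wild type (SD, n = 5 each), a difference of -0.60 (SE 0.17, 95% interval -0.98 to -0.21, limma adjusted p = 0.935, two-sided exact permutation p = 0.0159). It was -0.77 in the high-18S set and -0.48 in the low-18S set. The 3 probe sets were also compared across arrays. In deviations from the group means over 10 arrays, the brightest correlated with the next at a Pearson r of 0.73 (exact within-group permutation p = 0.0440, adjusted 0.242 over 11 pairs). The Spearman rho was 0.83 (p = 0.0110, adjusted 0.121). Without the 2 arrays farthest from the median of the brightest probe set, r was 0.77. With the dimmest, the brightest had a Pearson r of -0.36 (p = 0.341, adjusted 0.591) and a Spearman rho of -0.30 (p = 0.465, adjusted 0.731), and r was 0.14 without the 2 farthest arrays.

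**Figure D2:**
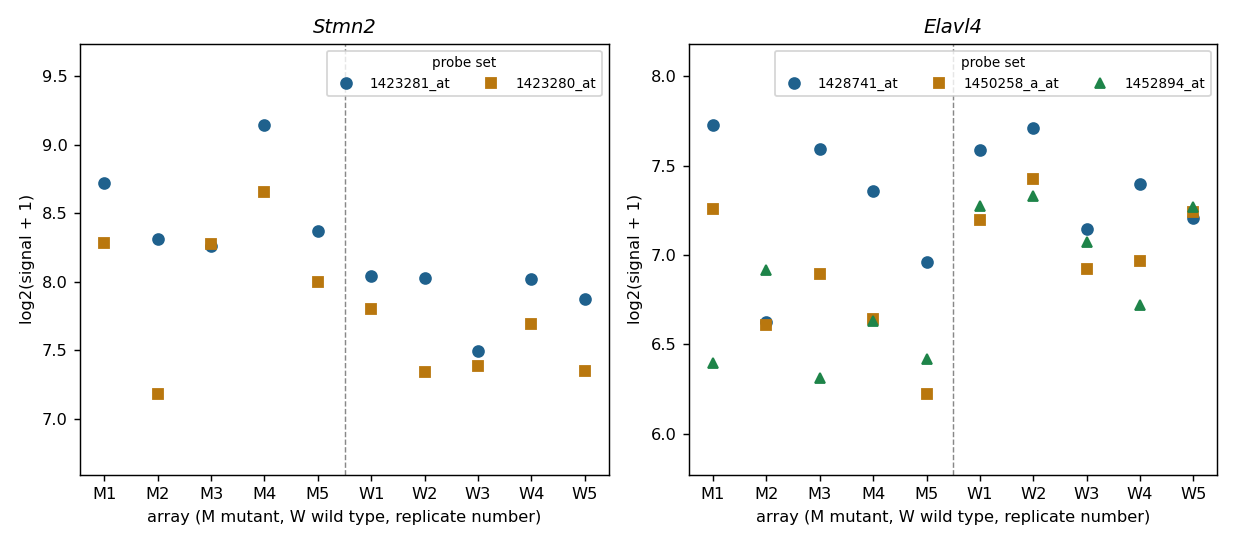
Log2(signal + 1) of every probe set of Stmn2 (left) and Elavl4 (right) in mutant arrays (M1 to M5, left of the dashed line) and wild-type arrays (W1 to W5). Both Stmn2 probe sets are highest in M4, while the Elavl4 probe set 1452894_at is lower in M1, M3, M4 and M5 than in any wild-type array.

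Tubb3, measured by 1 probe set (1415978_at), had signals of 118, 119, 79.95, 78.8 and 77.7 in mutant replicates 1 to 5, against 59.8, 117, 96.6, 66.8 and 62.7 in wild-type replicates 1 to 5. Mutant replicates 1 and 2 and wild-type replicate 2 were alike, and the groups overlapped. The difference was +0.25 (SE 0.24, 95% interval -0.27 to 0.78), and it was +0.16 without wild-type replicate 1 and +0.40 without wild-type replicate 2. It was -0.13 in the high-18S set and +0.51 in the low-18S set.

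The crest regulators were dim. Foxd3 (1422210_at) had signals of 48.5, 29.3, 63.4, 37.1 and 25.7 in mutant replicates 1 to 5, against 12.6, 13.5, 17.4, 33.7 and 23.8 in wild-type replicates 1 to 5. All 5 mutant arrays lay above the wild-type median and 3 above every wild-type array. The log2 means were 5.31 ± 0.52 in mutant and 4.32 ± 0.56 in wild type (SD, n = 5 each), a difference of +0.99 (SE 0.32, 95% interval 0.27 to 1.71, limma adjusted p = 1.00, two-sided exact permutation p = 0.0317), which was +0.64 with a pseudocount of 16. Its mean lay above 52.3% of the olfactory receptor probe sets, so its level is not distinguished from theirs. It differed by +0.75 in the high-18S set and by +1.16 in the low-18S set.

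Sox10 showed no common direction over its 3 probe sets, which differed by -0.01, +0.31 and -0.42 from brightest to dimmest, or by -0.02, +0.24 and -0.27 with a pseudocount of 16. The brightest (1424985_a_at) had signals of 91.2, 27.1, 50.2, 75.6 and 96.9 in mutant replicates 1 to 5, against 90.6, 57.3, 28.4, 142 and 44.8 in wild-type replicates 1 to 5. The arrays of each group were widely spread and overlapped, and the 95% interval of the difference ran from -1.07 to 1.05. The brightest probe set lay above 88.6% of the olfactory receptor probe sets and the other two above 61.4% and 31.8%.

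Isl1 was the bright member. Its brightest probe set (1450723_at) had signals of 1133, 1128, 1164, 1094 and 996 in mutant replicates 1 to 5, against 550, 1013, 798, 736 and 1545 in wild-type replicates 1 to 5. The mutant arrays were close together, and the wild-type arrays lay on both sides of them. The SD was 0.09 in mutant and 0.56 in wild type on the log2 scale, and the difference was +0.34 (SE 0.25, 95% interval -0.22 to 0.89). It was +0.17 without wild-type replicate 1 and +0.54 without wild-type replicate 5. The second probe set (1422720_at) ran from 409 to 902 in mutant, with a median of 587, and from 351 to 591 in wild-type arrays, with a median of 430, and differed by +0.45 (SE 0.23).

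The 2 Isl1 probe sets varied alike, with a Pearson r of 0.61 (exact within-group permutation p = 0.00431, adjusted 0.0474 over 11 pairs). The Spearman rho was 0.64 (p = 0.0390, adjusted 0.214). Without the 2 arrays farthest from the median of the brightest probe set r was 0.36, so the relation rests in part on those arrays. In the high-18S set Isl1 differed by -0.26 and -0.05 on the 2 probe sets, and in the low-18S set by +0.73 and +0.78. Wild-type replicate 5, the array with the highest Isl1 signal, is among the high-18S arrays.

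Hand2 had nearly the same mean in both groups on its brightest probe set. This probe set (1436041_at) had signals of 188, 72.8, 149, 199 and 155 in mutant replicates 1 to 5, against 138, 173, 105, 168 and 149 in wild-type replicates 1 to 5. Mutant replicate 2 was the lowest of all arrays, and wild-type replicate 3 the lowest of its group. These 2 arrays also had the brightest hybridisation controls, with mean log2 signals of 11.61 and 11.15, and without both of them Hand2 differed by +0.13. The log2 means were 7.19 ± 0.57 in mutant and 7.18 ± 0.29 in wild type (SD, n = 5 each), a difference of +0.00 (SE 0.28, 95% interval -0.61 to 0.62), and +0.25 without mutant replicate 2. The other 2 Hand2 probe sets were dim. One (1422221_at) had signals of 5.67 to 34.8 in mutant and 1.86 to 43.5 in wild-type arrays. It differed by +1.00 (SE 0.69, 95% interval -0.55 to 2.55), or by +0.42 with a pseudocount of 16. The dimmest (1443854_at) had signals of 1.78 to 4.83 in mutant and 1.78 to 2.93 in wild-type arrays and differed by +0.16 (SE 0.22). With the mean of its probe sets Hand2 differed by +0.39.

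**Figure D3:**
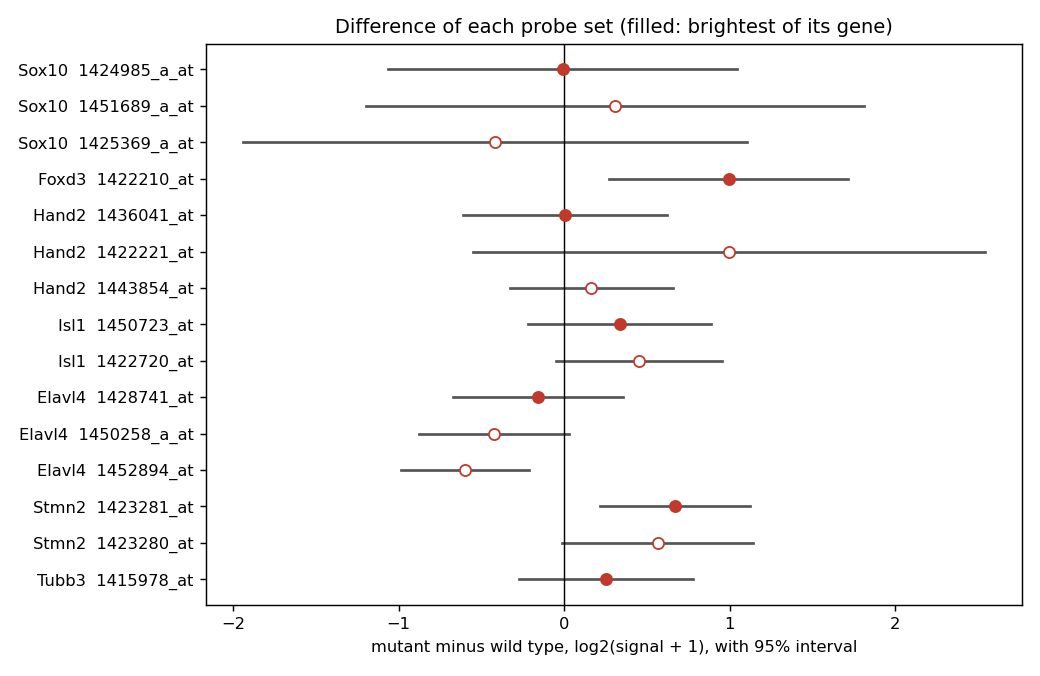
Difference of each of the 15 probe sets, mutant minus wild type, on log2(signal + 1) with its 95% interval from limma; filled points are the brightest probe set of a gene. The intervals of Foxd3, Stmn2 (1423281_at) and Elavl4 (1452894_at) do not cross 0, before adjustment over all probe sets.

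No pair of members was shown to vary together over the 10 arrays. Of 21 pairs of brightest probe sets, compared as deviations from the group means, none had an adjusted p under 0.05 (smallest adjusted exact permutation p = 0.268 for Pearson's r and 0.711 for Spearman's rho). Hand2 with Elavl4 had a Pearson r of 0.76 (p = 0.0256) and a Spearman rho of 0.58 (p = 0.132). Without the 2 arrays farthest from the median of the first-named gene, here Hand2, r was 0.33. Sox10 with Hand2 had the smallest unadjusted Pearson p, with an r of 0.74 (p = 0.0140) and a Spearman rho of 0.62 (p = 0.0677). Its r was 0.21 without the 2 farthest arrays. Hand2 with Stmn2 had the highest Spearman rho, 0.72 (p = 0.0342), and a Pearson r of 0.68 (p = 0.0885). Its r was 0.69 without the 2 farthest arrays. Stmn2 with Tubb3 had a Pearson r of -0.20 (p = 0.552) and a Spearman rho of -0.18 (p = 0.631), and r was 0.15 without the 2 farthest arrays. Among 9065 or, for members dimmer than that level, 9066 named genes with a mean log2 signal of at least 7, the most alike in these deviations over 10 arrays were Epas1, Prdm6 and Cav1 for Stmn2 (r of 0.97, 0.93 and 0.91), and Cd47, Zfp87 and Vps29 for Elavl4 (0.98, 0.93 and 0.92). For Hand2 they were Flrt2, St8sia4 and Snx4 (0.97, 0.95 and 0.95), and for Isl1 Zscan21, Dis3 and Fignl1 (0.92, 0.91 and 0.91). For Foxd3 they were Arhgap29, Spsb3 and Cenph (0.93, 0.91 and 0.91), for Sox10 Ppp1r9a, Erdr1 and Arv1 (0.95, 0.94 and 0.92), and for Tubb3 Stn1, Ercc1 and Tubb4b (0.89, 0.89 and 0.88). With 10 arrays and so many genes such values are a description only. Of 15 other crest and neuron genes in that pool, 3 were among the 100 most like Elavl4 and 1 among the 100 most like Foxd3. None, 0 of 15, was among those of Sox10, Hand2, Isl1, Stmn2 and Tubb3. Each 100 was taken from the 9065 or 9066 genes, and whether these counts differ from those of other genes was not tested.

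Other crest and neuron markers were read from lists of 11 crest and glia genes, 16 autonomic genes and 23 general neuronal genes. Of these, 9, 13 and 23 were analysed here, and none was called in either direction by limma. Which cells of the pools gave their signals was not tested. As a background for the counts below, 9991 of all 18193 genes were higher in mutant and 8202 lower.

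General neuronal genes were higher in mutant in 18 of 23, with a median difference of +0.18, and 16 of the 23 had a mean above the 95th percentile of the olfactory receptors. Their summed signal was 6133 to 7515 in mutant and 5496 to 6595 in wild-type arrays. Bright genes weigh most in such sums, and Tubb2b alone had signals of 2381 to 3809 in mutant and 2176 to 3675 in wild-type arrays. Of the 3 brightest, Gap43, which encodes a growth cone protein, had signals of 758, 475, 622, 625 and 513 in mutant replicates 1 to 5, against 396, 411, 373, 351 and 367 in wild-type replicates 1 to 5. The groups did not overlap, with log2 means of 9.21 ± 0.27 in mutant and 8.57 ± 0.09 in wild type (SD, n = 5 each) and a difference of +0.64 (SE 0.15, limma adjusted p = 0.821, two-sided exact permutation p = 0.00794). Gap43 differed by +0.54 in the high-18S set and by +0.70 in the low-18S set. The others were Tubb2b, a beta-tubulin of neurons, at +0.11 (SE 0.19) and Crmp1, a protein of axon guidance, at +0.18 (SE 0.19). Elavl3, a close relative of Elavl4, differed by +0.79 (SE 0.59) and by +0.23 without wild-type replicate 3, and Dcx, of migrating neurons, by -0.08 (SE 0.18).

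Autonomic genes were higher in 9 of 13, with a median of +0.13 that was -0.01 without mutant replicate 4. Their summed signal was 1795 to 2227 in mutant and 1479 to 1917 in wild-type arrays. The brightest, Gfra3, alone had signals of 676 to 1032 in mutant and 552 to 719 in wild-type arrays. Dbh, the enzyme that makes noradrenaline, had signals of 438, 216, 296, 371 and 203 in mutant replicates 1 to 5, against 289, 321, 168, 156 and 134 in wild-type replicates 1 to 5. The groups overlapped, with a difference of +0.54 (SE 0.31). Th, the first enzyme of catecholamine synthesis, differed by +0.27 (SE 0.30). Gfra3, the artemin co-receptor, differed by +0.36 (SE 0.15) with 4 of 5 mutant arrays above every wild-type array, and Ddc, another enzyme of the pathway, by +0.04 (SE 0.16). The 4 lower genes of the list were named after their values were seen. They were Chat at -0.53 (SE 0.23), Slc18a3 at -0.49 (SE 0.68), Prph at -0.38 (SE 0.51) and Chga at -0.28 (SE 0.43). All 4 had a mean below the 95th percentile of the olfactory receptors, while 8 of the 13 genes had a mean above it.

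Crest and glia genes were split, with 5 of 9 higher, a median of +0.08 and summed signals of 877 to 1273 in mutant and 923 to 1282 in wild-type arrays. The median was -0.23 in the high-18S set and -0.03 without wild-type replicate 5. The brightest, Ednrb, Ngfr and Erbb3, are receptors of crest cells and glia, and they differed by +0.10 (SE 0.19), -0.27 (SE 0.26) and +0.13 (SE 0.20).

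Central and sensory neuron genes were mostly dim, with 2 of 11 above the 95th percentile of the olfactory receptors, 6 higher and 5 lower and a median of +0.28. Their brightest, Isl2, Lhx3 and Pou4f1, are transcription factors of motor or sensory neurons and differed by +0.28 (SE 0.26), -0.04 (SE 0.25) and +0.70 (SE 0.36). Isl2 was +0.092 without wild-type replicate 2, and Pou4f1 was +0.46 without mutant replicate 3. Olig2, a spinal cord regulator, lay above 2.27% of the olfactory receptor probe sets.

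Ligands that crest cells and autonomic axons respond to were lower in 6 of 7 measured, with a median of -0.27. Gdnf, the ligand of the Ret receptor on crest-derived neurons and on the ureteric bud, had signals of 111, 222, 211, 110 and 170 in mutant replicates 1 to 5, against 407, 375, 260, 359 and 341 in wild-type replicates 1 to 5. The groups did not overlap, with a difference of -1.12 (SE 0.24, limma adjusted p = 0.821). Nrtn, a relative of Gdnf, differed by -0.04 (SE 0.28), and Sema3a, a repellent of sympathetic axons, by -0.36 (SE 0.25).

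**Figure D4:**
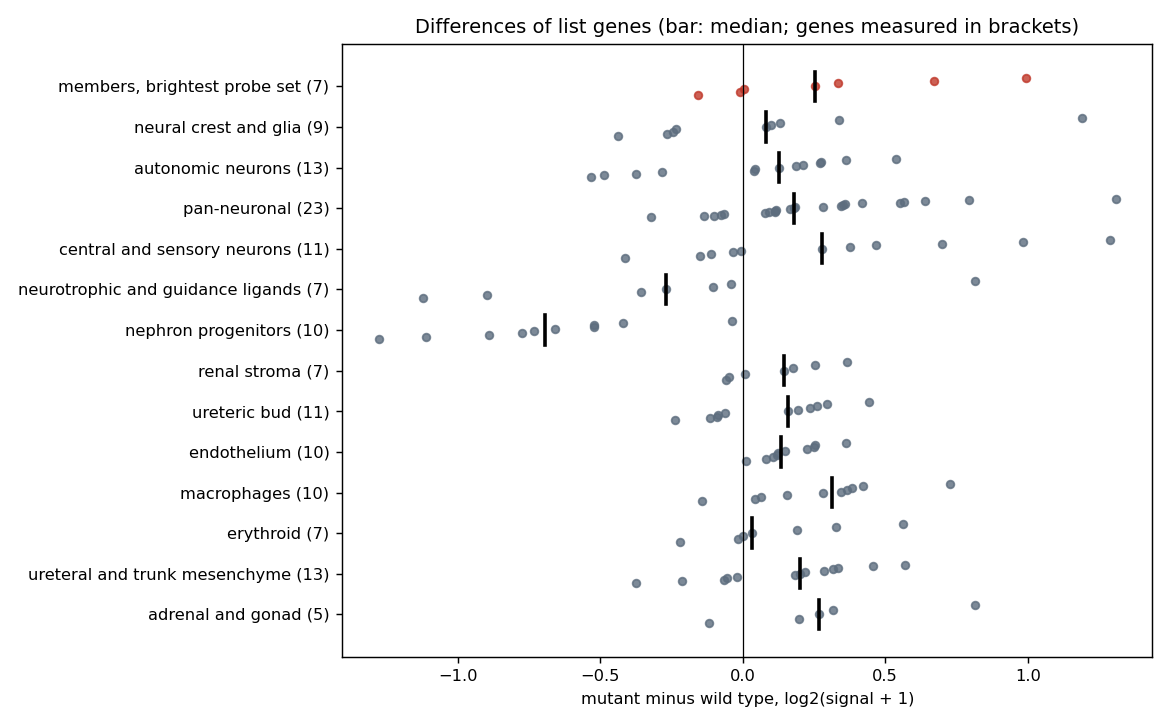
Differences of the 7 members (top, red) and of genes in the lists of related and other cell types, mutant minus wild type on log2(signal + 1), brightest probe set per gene; bars are medians and brackets give the genes measured. General neuronal genes have a median of +0.18 and nephron progenitor genes of -0.70.

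Markers of other cells in the pools were counted beside these. Nephron progenitor genes, of which Eya1, Sall1 and Six2 were brightest, were lower in 10 of 10, with a median of -0.70 and summed signals of 4140 to 7908 in mutant and 8821 to 10749 in wild-type arrays. Macrophage genes (Csf1r, C1qb and C1qa brightest) were higher in 9 of 10, with a median of +0.31 and sums of 1429 to 2700 in mutant and 1460 to 2074 in wild-type arrays. Endothelial genes (Emcn, Kdr and Cldn5 brightest) were higher in 10 of 10, with a median of +0.14 and sums of 3414 to 4742 in mutant and 3365 to 4400 in wild-type arrays. Genes of ureteral and trunk mesenchyme (Ptch1, Acta2 and Tbx18 brightest) were higher in 8 of 13, with a median of +0.20 and sums of 5283 to 8506 in mutant and 5075 to 6163 in wild-type arrays. Renal stroma genes (Meis2, Aldh1a2 and Foxd1 brightest) were higher in 5 of 7, with a median of +0.15 and sums of 14991 to 21286 in mutant and 14914 to 18578 in wild-type arrays.

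Ureteric bud genes (Krt18, Krt8 and Wnt11 brightest) were higher in 6 of 11, with a median of +0.16 and sums of 1811 to 4218 in mutant and 2075 to 3267 in wild-type arrays. Epcam, a marker of that epithelium, differed by -0.09 (SE 0.41). Of the 11 bud genes, 10 had a mean above the 95th percentile of the olfactory receptors, and which cells gave their signals was not tested. Erythroid genes (Hbb-y, Hba-x and Hbb-bh1 brightest) were higher in 4 of 7, with a median of +0.03 and sums of 28805 to 48411 in mutant and 26310 to 54752 in wild-type arrays. Adrenal and gonad genes (Star, Nr5a1 and Cyp11a1 brightest) were higher in 4 of 5, with a median of +0.27 and sums of 181 to 304 in mutant and 133 to 293 in wild-type arrays, and 1 of the 5 lay above the 95th percentile of the olfactory receptors. None of these genes was called by limma, and the part that the makeup of the pools has in the values of Stmn2 or Gap43 was not tested.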

How the data were processed

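The authors deposited probe-set intensities on a linear scale for 10 Affymetrix arrays, and the values show a common trimmed mean over the arrays. The summarising algorithm is not named in the labels, and per the labels' protocols biotinylated cRNA was made from about 1 ug of pooled RNA. The 64 control probe sets were left out. Symbols came from the platform annotation, which gave 1 symbol for 34945 of the 45037 probe sets. A gene is read from its brightest probe set unless another is named. All probe sets were fitted on log2(signal + 1) with limma 3.58.1 (lmFit, eBayes, two-sided) in R 4.3.3, with Benjamini-Hochberg adjustment over all of them. The fit was also run on simulated data with independent noise in each array, which checks the code and not the results here. Exact permutation tests used the 252 arrangements of 5 against 5 arrays. Arrays were split at a signal of 1000 of a control probe set for 18S ribosomal RNA, which left 2 mutant and 2 wild-type arrays high and 3 of each low.

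Replicate numbers only name the arrays. A mutant and a wild-type array shared title wording (MM2, mesenchyme or Wnt9B with MM) in 3 cases. These had correlated deviations from the group means (0.38, 0.45 and 0.56 over 16996 probe sets). Whether the arrays of these 3 cases are more alike than other mutant and wild-type arrays was not tested, and the labels state no pairing. A fit with these cases as the replicate block was run, with the remaining arrays in a common level although their titles also hold MM. The cases of mutant replicate 5 with wild-type replicate 2 and of mutant replicate 4 with wild-type replicate 5 make up the high-18S set. In the remaining case, mutant replicate 1 and wild-type replicate 4 are both in the low-18S set. The replicate block and the 18S sets therefore overlap and are not separate checks. The labels' protocols give a separate pool per array, so p-values measure the spread between pools and arrays, and the number of arrays limits the precision. The members and lists were chosen with earlier results of these data known. Named list genes were the 3 brightest of each list and fixed markers, with values for those of crest, neuron and ligand lists. Some list genes are not reported here. Alternatives were a pseudocount of 16, 1 value per gene, a filter leaving out the dimmest 40%, 3 normalizations, 2 moderations or weightings, the blocks, the 18S sets and leaving out arrays.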

Additional observations from a re-analysis of the deposited data

Results flagged for a closer look

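One array lay far from the rest of its group, relative to the group's range, in 3 of 72 groups of 5 arrays. By chance 1.5 of the 30 groups of member probe sets and 2.1 of the 42 groups of other named genes would do so, and 2 and 1 did. For the brightest Hand2 probe set, mutant replicate 2 stood at 6.21 on the log2 scale while its group otherwise ran from 7.23 to 7.64. That array also stood apart for the dimmest Hand2 probe set, at 2.54 while the rest ran from 1.47 to 1.73. Mutant replicate 4 stood at 5.72 for Lhx3, a transcription factor of motor neurons, while its group otherwise ran from 6.53 to 6.80.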

How the results depend on the processing

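No alternative brought a member past an adjusted p of 0.05. Of 167 alternative values for the brightest probe sets of the members, 19 reversed, and the smallest limma adjusted p was 0.664. The blocks, the moderation, the dim filter and the brightest probe set per gene leave a member's difference as it is by construction and bear only on its p. Stmn2 ranged from +0.52 to +0.75 and Foxd3 from +0.82 to +1.19 when 1 array was left out. The 2 calls over all probe sets were 3 with a pseudocount of 16 or median centring and 1 with the brightest probe set per gene, quantile normalization, centring on the middle range or with mutant replicate 2 and wild-type replicate 3, whose hybridisation controls were brightest, left out together. They were 0 with the mean of probe sets per gene, the replicate block, the 18S block and either 18S set alone, and 0 to 1 when 1 array was left out. With the replicate block the smallest adjusted p among the members' brightest probe sets was 0.965, so it changed no member's call. With the mean of probe sets per gene Ednrb was -0.015, Ddc -0.060, Sema3a +0.068 and Dcx +0.16. Hand2 was -0.016 with quantile normalization, -0.018 with median centring, -0.012 with centring on the middle range and -0.081 in the low-18S set. Array weights gave Sox10 +0.093 and Lhx3 +0.038. The high-18S set gave Sox10 +0.74, Isl1 -0.26, Tubb3 -0.13, Isl1 (1422720_at) -0.049, Sox10 (1425369_a_at) +0.087, Hand2 (1443854_at) -0.13, Erbb3 -0.23, Ddc -0.11, Crmp1 -0.058, Lhx3 +0.093 and Dcx +0.12. The low-18S set gave Sox10 (1451689_a_at) -0.42, Nrtn +0.074, Wnt9b +0.11 and Epcam +0.38. Without that pair of arrays Sox10 was +0.0036, Hand2 (1443854_at) -0.053 and Lhx3 +0.019. Leaving out 1 array gave ranges of -0.29 to 0.28 for Sox10, -0.11 to 0.25 for Hand2, -0.031 to 0.82 for Sox10 (1451689_a_at), -0.024 to 0.25 for Hand2 (1443854_at), -0.017 to 0.23 for Ednrb, -0.051 to 0.11 for Ddc, -0.14 to 0.15 for Lhx3, -0.21 to 0.074 for Nrtn, -0.21 to 0.0058 for Dcx and -0.34 to 0.28 for Epcam. The cause of these reversals was not tested. Foxd3 and the other dim probe sets have no value with the dimmest 40% left out. Foxd3, Sox10 and the dimmer Hand2 probe sets lie in or near the olfactory receptor range, which limits what their differences can show.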
